A study of Mesocricetus auratus with 6 samples.

Results

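The genes described here encode cullin-RING ubiquitin ligases in BHK21 cells, that is, the cullin scaffolds, their shared core components and the large families of receptors that bring substrates to them. Members were chosen by gene symbol alone: Cul, Dcaf, Fbxo, Fbxl, Fbxw, Klhl or Kctd followed by a number, together with Rbx1, Skp1, Skp2, Nedd8 and Cand1. Of the 16078 genes listed in each library, 130 were members, and the rule uses no measured value. They comprised 12 cullins and core components, 57 F-box proteins, 12 DCAF proteins, 32 KLHL proteins and 17 KCTD proteins. A further 13 golden hamster genes with such symbols had no row in the files and are not analysed here. BHK21 is a line derived from baby hamster kidney, for which the labels give kidney as the tissue and an age of 1 day. One set of cells was transfected with STYK1/NOK, a gene for a membrane protein with a kinase-like domain that the series calls an oncogene (libraries STYK1 1 to 3). The others were transfected with pCMV-Myc, the empty vector (libraries vector 1 to 3). RNA was taken 48 after transfection, a time to which the labels attach no unit. Whether libraries of 1 group are separate cultures is not in the labels, so a p-value reflects only how these libraries scatter, possibly for technical reasons.

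Cullin-RING ligases are modular enzymes. A cullin holds, at its C-terminal end, a RING protein such as RBX1 that recruits a ubiquitin-loaded enzyme, and at its N-terminal end an adaptor with an exchangeable substrate receptor. CUL1 uses SKP1 and F-box proteins, CUL2 and CUL5 use elongins B and C, CUL3 uses BTB-domain proteins such as the KLHL family and some of the KCTD family, and CUL4A and CUL4B use DDB1 with DCAF proteins. Attachment of the ubiquitin-like protein NEDD8 activates the cullin, the COP9 signalosome removes it, and CAND1 binds the free cullin and lets receptors exchange. The receptors set substrate choice, and through them these ligases act in the cell cycle, in iron and circadian control and in the turnover of signalling proteins.

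The transfected gene was measured first. Hamster Styk1 was listed at 2.04, 2.46 and 2.41 FPKM in STYK1 1, 2 and 3, against 1.5, 1.8 and 1.89 FPKM in vector 1, 2 and 3. FPKM are fragments scaled to transcript length and to the fragments mapped in a library. The groups did not overlap, and the difference did not pass the test over all genes (limma-trend, adjusted p = 0.470). Which species the transfected sequence came from is not in the labels, so these values need not show the transcripts made from the plasmid. Read totals are not analysed here. From the most frequent ratio of low FPKM values (0.8 to 6 FPKM) between libraries, depth relative to STYK1 1 was put at 0.979 to 1.03. The FPKM of all genes summed to 528160 to 542638 in STYK1 and 554681 to 619840 in vector libraries, highest in vector 1. Vector 1 stood apart, with correlations to the other libraries of 0.963 to 0.976 on the log2(FPKM + 1) scale, whereas the pairs without it had 0.988 to 0.993. Among tested genes vector 1 was the lowest of the 6 libraries in 36.2% and the highest in 37.1%, and results are therefore given with and without it. In such bulk RNA fewer cells that express a gene and less RNA per cell cannot be told apart. Of the markers, 7 of 9 for kidney epithelium had a row and their FPKM summed to 0.72 to 1.46 in STYK1 and 0.69 to 0.98 in vector libraries, so defining markers of the labelled tissue such as Cdh1, Epcam and Krt8 were at or near 0. Of 8 fibroblast or mesenchymal markers 7 had a row and summed to 4168 to 4486 FPKM in STYK1 and 4466 to 4693 FPKM in vector libraries. Vim, Fn1, Sparc and Pdgfrb made up nearly all of that sum, while Col1a1, Col1a2 and Thy1 were at most 1.02 FPKM in any library. All 4 skeletal muscle markers had a row and summed to 252 to 291 FPKM in STYK1 and 286 to 314 FPKM in vector libraries. Myod1 made up nearly all of that sum, while Myog, Ckm and Acta1 were at most 2.96 FPKM in any library. Endothelial markers (2 of 3 with a row) summed to 6.63 to 9.46 FPKM in STYK1 and 4.89 to 8.58 FPKM in vector libraries, and blood markers (2 of 3) to at most 0.22 FPKM.

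Levels ranged widely within the families, from a mean over the 6 libraries of 299.5 FPKM for Skp1, the adaptor of the SCF ligases, to 0.0067 FPKM for Klhl14. All 12 cullins and core components, all 12 DCAF and all 7 Fbxw genes reached the filter, which asked for a group mean no lower than 1 FPKM in either group. Under it stayed Fbxl2, Fbxl7 and Fbxl13 out of 17 genes of the Fbxl subfamily, in which Skp2 is counted, along with 8 of 33 Fbxo genes, 10 of 32 Klhl genes and 3 of 17 Kctd genes. None of these 24 genes was listed at 0 in all 6 libraries, and the highest of them averaged 0.688 FPKM. The median level was 32.0 FPKM for cullins, 85.4 FPKM for the other core components, 17.7 FPKM for Fbxw, 17.4 FPKM for Dcaf, 10.4 FPKM for Fbxl, 8.71 FPKM for Fbxo, 6.10 FPKM for Kctd and 4.85 FPKM for Klhl genes. At least 10 FPKM in every library was found for 57 members.

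**Figure D1:**
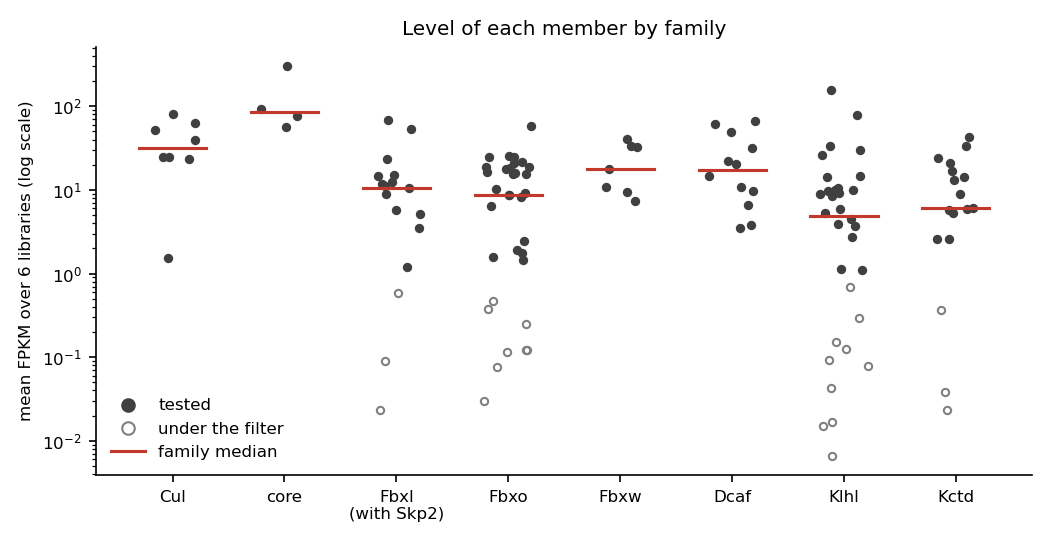
Mean FPKM over the 6 libraries on a log axis, 1 point per member, by family. Filled points were tested, open points (24 genes) lay under the filter, and red bars are family medians, from 85.4 FPKM for the core components to 4.85 FPKM for Klhl genes.

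The comparison of STYK1 with vector libraries covered the 106 members past the filter, as part of a fit over 11464 genes. No member passed the test (limma-trend, 0 of 106 at an adjusted p under 0.05, lowest adjusted p = 0.469), and the share called over all genes was 0%. At an unadjusted p under 0.05, 12 of 106 members were higher in STYK1 libraries (11.3%, against 4.95% of all genes) and 6 were lower (5.66%, against 4.88%). All 3 STYK1 libraries lay above all 3 vector libraries for 24 members (22.6%, against 13.6% of all genes) and below them for 8 (7.55%, against 9.44%). The median log2 difference of the members was 0.06, with 64 of 106 above 0, and that of all genes was 0.01, with 52.7% above 0. No test was made of the gap between these shares, and the split depended on scaling. Scaling to equal FPKM sums, which moved the median of all genes to 0.12, gave 19 higher and 3 lower members at that threshold (17.9% and 2.83%), against 11.0% and 1.9% of all genes. Median centring gave 8 higher and 6 lower (7.55% and 5.66%), against 3.51% and 6.65% of all genes. Members whose groups did not overlap were 35 above and 2 below with equal sums, against 24.5% and 3.95% of all genes. They were 20 above and 11 below after median centring, against 10.4% and 12.5%, and 23 above and 12 below after quantile normalization, against 11.7% and 9.26%. With equal sums the shares of all genes shifted in the same directions as those of the members. The same held after median centring, except that the lower members at that threshold stayed at 6 while the share of all genes rose from 4.88% to 6.65%. After quantile normalization the members wholly below rose from 8 to 12, while the share of all genes went from 9.44% to 9.26%. Without vector 1 there were 8 higher and 5 lower members at an unadjusted p under 0.05, against 4.91% and 4.57% of all genes, and the median was 0.04. The count was 2 higher and 2 lower without STYK1 1 (1.44% and 1.65% of all genes), 3 higher and 5 lower without STYK1 2 (1.83% and 3.18%), and 9 higher and 3 lower without STYK1 3 (2.92% and 3.26%). Klhl28 and Klhl42 entered the test only through their STYK1 mean and Fbxl14 only through its vector mean, so that these 3 had to differ.

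By ligase class the medians of the log2 difference were 0.13 for 22 KLHL proteins, 0.11 for 12 cullins and core components, 0.05 for 46 F-box proteins, 0.03 for 12 DCAF proteins and 0.02 for 14 KCTD proteins. The DCAF and KCTD medians exceeded that of all genes by 0.01 and 0.0017. Without vector 1 the 5 class medians were 0.09, 0.06, 0.03, 0.02 and 0.04 in that order, against 0.02 for all genes. After median centring the DCAF and KCTD medians were -0.00074 and -0.01. Within the F-box class the medians were 0.08 for Fbxo, -0.05 for Fbxl with Skp2 and -0.16 for Fbxw, and 0.07, -0.02 and -0.06 without vector 1. Vector 1 was the highest of the 6 libraries in 5 of 7 Fbxw genes, and the subfamilies were not tested against each other. With equal FPKM sums the Fbxl median was 0.06, above 0 but at -0.05 relative to the median of all genes under that scaling.

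**Figure D2:**
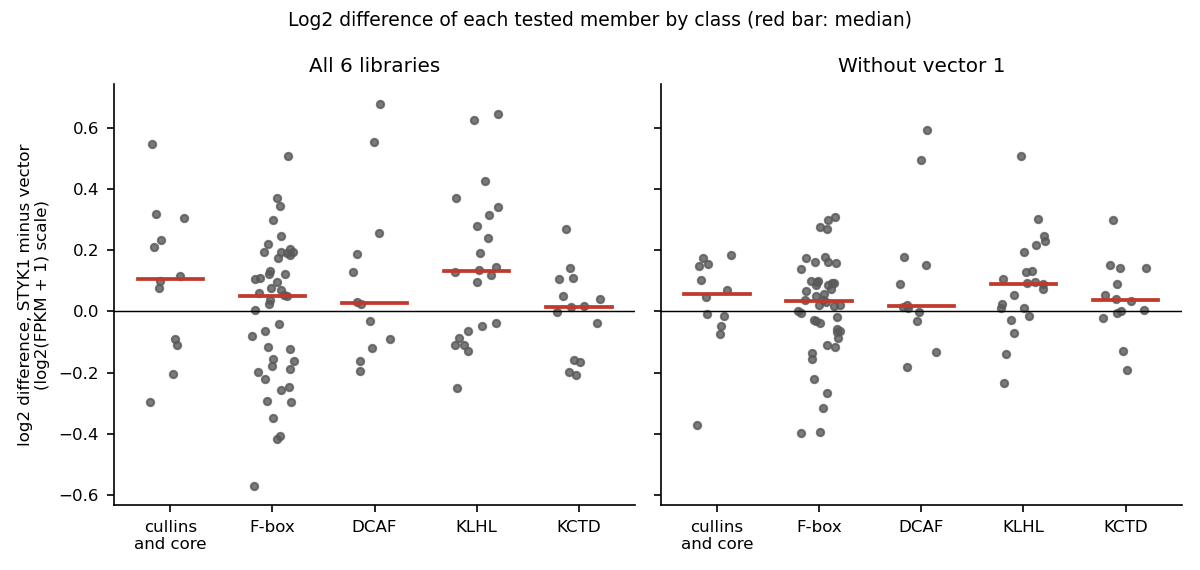
Log2 difference of each tested member, STYK1 minus vector, on the log2(FPKM + 1) scale, by class, with all 6 libraries on the left and without vector 1 on the right. Red bars are medians, 0.13 for KLHL and 0.11 for cullins and core components on the left and 0.09 and 0.06 on the right, where the points lie closer together.

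Cul1, Cul2, Cul3, Cul4a, Cul4b and Cul5 all had higher means in STYK1 libraries, whereas Cul7 and Cul9 had lower means, none of them past the test over all genes. The 8 cullins summed to 331.95, 341.25 and 319.28 FPKM in STYK1 1, 2 and 3, against 250.59, 306.51 and 306.87 FPKM in vector 1, 2 and 3. STYK1 libraries lay above vector 2 and vector 3 as well, though vector 1 was far below every other library. The median log2 difference of the 8 was 0.17, and 0.11 without vector 1, against 0.01 and 0.02 for all genes. Vector 1 was the lowest of the 6 libraries for 6 of the 8 and the highest for 1, and its part in the result was not tested.

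Cul3 (NCBI Gene ID 101830549), the scaffold for BTB-domain receptors, measured 71.13, 69.58 and 66.24 FPKM in STYK1 libraries and 52.20, 63.94 and 59.92 FPKM in vector libraries. Every STYK1 library exceeded every vector library. The log2 difference was 0.23 ± 0.10 (SE; limma-trend unadjusted p = 0.0392), and 0.15 without vector 1 (unadjusted p = 0.0397). Cul4a (101840652), a scaffold of the DDB1-DCAF ligases, measured 55.16, 62.13 and 53.76 FPKM in STYK1 libraries and 38.64, 50.88 and 49.09 FPKM in vector libraries. Again the groups were separate, by a narrow gap between STYK1 3 and vector 2. On the log2 scale the difference was 0.30 ± 0.12 (SE; limma-trend unadjusted p = 0.0349), and 0.18 without vector 1 (0.0411). Cul5 (101838652), which works with elongins and SOCS-box receptors, measured 25.68, 27.00 and 25.87 FPKM in STYK1 libraries and 16.93, 22.33 and 23.83 FPKM in vector libraries. STYK1 values lay close to each other and above all vector values. In log2 terms the difference was 0.32 ± 0.13 (SE; limma-trend unadjusted p = 0.0404), and 0.18 without vector 1 (0.0390).

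Cul4b (101829742), the close paralog of Cul4a, measured 48.99, 45.58 and 42.05 FPKM in STYK1 libraries and 17.32, 41.08 and 40.80 FPKM in vector libraries. The groups did not overlap, but vector 1 was far below every other library. The log2 difference was 0.55 ± 0.29 (SE), and 0.15 without vector 1, with unadjusted limma-trend p-values of 0.0971 and 0.0880. The ratio of Cul4a to Cul4b was 1.13, 1.36 and 1.28 in STYK1 libraries and 2.23, 1.24 and 1.20 in vector libraries, so that vector 1 differed from the rest in the balance of the 2 paralogs too. The sources give no account of how reads shared by such paralogs were counted. Cul2 (101834411), the scaffold of the VHL ligase, measured 26.04, 25.48 and 25.10 FPKM in STYK1 libraries and 22.11, 23.87 and 24.66 FPKM in vector libraries. STYK1 libraries were all higher, if narrowly, and the log2 difference of 0.11 ± 0.09 (SE) was 0.07 without vector 1. Cul1 (101824322), the scaffold of the SCF ligases and the most abundant cullin, measured 81.09, 84.28 and 81.80 FPKM in STYK1 libraries and 74.90, 78.43 and 81.20 FPKM in vector libraries. STYK1 1 lay just below vector 3, and its log2 difference of 0.08 ± 0.08 (SE) had a 95% interval from -0.10 to 0.25 and was 0.05 without vector 1.

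Cul9 (101843759), a large cytoplasmic relative of Cul7, ran the other way, at 1.08, 1.34 and 1.37 FPKM in STYK1 libraries and 1.49, 1.87 and 1.98 FPKM in vector libraries. All STYK1 libraries were below all vector libraries. On the log2 scale the difference was -0.29 ± 0.15 (SE; limma-trend unadjusted p = 0.0867), and -0.37 without vector 1 (0.0424), at a level close to the filter. Cul7 (101844816), which assembles with FBXW8, measured 22.78, 25.86 and 23.09 FPKM in STYK1 libraries and 27.00, 24.11 and 25.39 FPKM in vector libraries. The groups overlapped, and its log2 difference of -0.09 ± 0.10 (SE) was -0.05 without vector 1. With equal FPKM sums it was 0.02, but relative to the median of all genes it was -0.10 under both scalings.

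In order of level, Cul1 (80.3 ± 3.23 FPKM, SD over 6 libraries) stood above Cul3 (63.8 ± 6.97 FPKM) with no overlap of their ranges, and was above it in every library. Cul4a (51.6 ± 7.78 FPKM) and Cul4b (39.3 ± 11.2 FPKM) followed, with overlapping ranges but the same order in each library. Cul7, Cul2 and Cul5 averaged 24.7, 24.5 and 23.6 FPKM, and their order changed from library to library. Cul9, at 1.52 ± 0.342 FPKM, was below all of them.

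**Figure D3:**
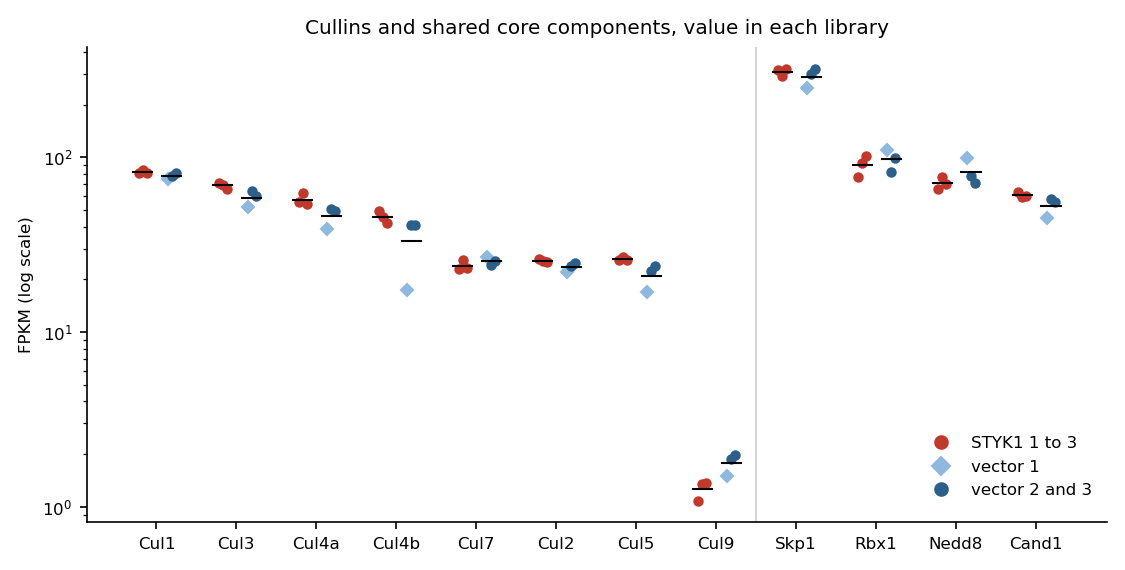
FPKM of each cullin and core component in each library on a log axis, with STYK1 libraries (red) left of vector libraries (blue; vector 1 as a pale diamond) and group means as bars. Vector 1 is the lowest point for Cul1, Cul2, Cul3, Cul4a, Cul4b, Cul5, Skp1 and Cand1, and is furthest from the others in Cul4b at 17.32 FPKM.

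The 4 shared core components differed in direction, with 2 log2 differences above 0 and a median of -0.0056. Cand1 (101840342), the exchange factor, measured 63.51, 59.12 and 60.09 FPKM in STYK1 libraries and 45.01, 57.72 and 55.57 FPKM in vector libraries. Its groups did not overlap, and the log2 difference of 0.21 ± 0.11 (SE) was 0.10 without vector 1. Skp1 (110340475), the adaptor between CUL1 and F-box proteins, measured 316.19, 291.95 and 319.28 FPKM in STYK1 libraries and 248.09, 299.88 and 321.74 FPKM in vector libraries. Only vector 1 was set apart there, and the log2 difference of 0.10 ± 0.11 (SE) was -0.0080 without it. Rbx1 (101838028), the RING subunit, measured 76.62, 92.60 and 101.12 FPKM in STYK1 libraries and 110.50, 82.50 and 99.34 FPKM in vector libraries. Nedd8 (101838976) measured 65.80, 76.94 and 70.61 FPKM in STYK1 libraries and 98.53, 78.29 and 71.46 FPKM in vector libraries. Both had overlapping groups and their highest value in vector 1, with log2 differences of -0.11 ± 0.14 and -0.21 ± 0.13 (SE) that were -0.02 and -0.07 without vector 1. In each library Skp1 had between 3.31 and 3.96 times the FPKM of Cul1, and 0.313 to 0.427 times the summed FPKM of the 57 F-box genes.

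Of 46 tested F-box proteins, 3 were higher and 5 lower with a p under 0.05 before adjustment (6.52% and 10.9%, against 4.95% and 4.88% of all genes). For 6 the STYK1 libraries were all above and for 6 all below the vector libraries, 13.0% each way, close to the 13.6% and 9.44% of all genes. The leucine-rich repeat subfamily Fbxl had 14 tested members, 7 with a log2 difference above 0 and 7 below. Its most abundant genes were Fbxl5 (101829962), the iron-sensing receptor that targets IRP2, and Fbxl6 (101839963). Fbxl5 averaged 69.1 ± 6.13 FPKM in STYK1 and 67.9 ± 4.5 FPKM in vector libraries (SD, n = 3 each), a log2 difference of 0.02 that was -0.03 without vector 1. Fbxl6 measured 47.05, 44.49 and 46.96 FPKM in STYK1 libraries and 74.68, 57.31 and 54.29 FPKM in vector libraries. All STYK1 libraries were below all vector libraries, and vector 1 was the highest. On the log2 scale the difference was -0.41 ± 0.12 (SE; limma-trend unadjusted p = 0.0106), and -0.27 without vector 1 (0.00265).

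Of the other Fbxl genes whose groups did not overlap, Fbxl12 (101831560) averaged 9.51 ± 0.22 FPKM in STYK1 and 11.3 ± 1.52 FPKM in vector libraries (SD, n = 3 each), a log2 difference of -0.22. Fbxl20 (101839739) averaged 16.1 ± 1.18 FPKM in STYK1 and 14.1 ± 0.269 FPKM in vector libraries, a log2 difference of 0.17. Fbxl4 (101837303), a mitochondrial protein that restrains mitophagy, averaged 5.38 ± 0.166 FPKM in STYK1 and 4.87 ± 0.201 FPKM in vector libraries, a log2 difference of 0.12. The unadjusted limma-trend p-values of Fbxl12, Fbxl20 and Fbxl4 were 0.103, 0.110 and 0.323. Skp2, the receptor for the CDK inhibitor p27, was named in the rule for members, and measured 6.05, 5.63 and 6.97 FPKM in STYK1 libraries and 3.59, 5.91 and 6.69 FPKM in vector libraries. Only vector 1 lay apart, and its log2 difference of 0.20 ± 0.20 (SE) was -0.02 without vector 1.

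The Fbxo subfamily, whose members carry other or no known substrate domains, had 17 of 25 tested genes with a log2 difference above 0. Fbxo11 (101841369), known in human B cells as the receptor for BCL6, measured 22.50, 22.27 and 20.65 FPKM in STYK1 libraries and 11.12, 16.40 and 18.49 FPKM in vector libraries. Every STYK1 library exceeded every vector library, with vector 1 the lowest. In log2 terms the difference was 0.51 ± 0.17 (SE; limma-trend unadjusted p = 0.0165), and 0.31 without vector 1 (0.00661). Fbxo5 (101827555), which encodes EMI1, an inhibitor of the anaphase-promoting complex, measured 21.66, 21.55 and 19.78 FPKM in STYK1 libraries and 14.60, 15.90 and 18.72 FPKM in vector libraries. Its groups were separate too, with vector 3 nearest to the STYK1 libraries. The log2 difference was 0.34 ± 0.11 (SE; limma-trend unadjusted p = 0.0155), and 0.27 without vector 1 (0.0201).

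A pair of low Fbxo genes had lower means in STYK1 libraries. Fbxo36 (101839233) measured 1.03, 1.54 and 1.03 FPKM in STYK1 libraries and 3.12, 1.60 and 2.20 FPKM in vector libraries. The groups were separate, but STYK1 2 and vector 2 were close together. In log2 terms the difference was -0.57 ± 0.20 (SE; limma-trend unadjusted p = 0.0223), and -0.40 without vector 1 (0.0614). Fbxo16 (101838496) measured 1.70, 2.08 and 2.32 FPKM in STYK1 libraries and 2.62, 2.92 and 3.03 FPKM in vector libraries. All vector libraries were higher, and vector 1 was the lowest of them, so the log2 difference of -0.35 ± 0.14 (SE) was -0.40 without it (limma-trend unadjusted p = 0.0396 and 0.0290). The most abundant members were Fbxo31 (101841270), which targets cyclin D1 after DNA damage, and Fbxo21 (101836997). Fbxo31 averaged 59.1 ± 1.56 FPKM in STYK1 and 56.0 ± 1.63 FPKM in vector libraries (SD, n = 3 each), with a 95% interval of the log2 difference of -0.10 to 0.25. Fbxo21 averaged 25.8 ± 2.47 FPKM in STYK1 and 24.5 ± 0.726 FPKM in vector libraries, with an interval of -0.16 to 0.29.

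The Fbxw subfamily, which binds substrates through WD40 repeats, had 4 of 7 log2 differences below 0. Fbxw9 (101837658) measured 8.25, 7.88 and 7.62 FPKM in STYK1 libraries and 12.72, 10.09 and 10.08 FPKM in vector libraries. Each STYK1 library was below each vector library. On the log2 scale the difference was -0.42 ± 0.12 (SE; limma-trend unadjusted p = 0.00916), and -0.31 without vector 1 (0.0102). Fbxw4 (101831525), known from a limb malformation in the mouse, measured 14.19, 17.57 and 15.79 FPKM in STYK1 libraries and 21.73, 18.20 and 18.93 FPKM in vector libraries. The groups were separate, with STYK1 2 close to vector 2. In log2 terms the difference was -0.29 ± 0.12 (SE; limma-trend unadjusted p = 0.0346), and -0.22 without vector 1 (0.0576). Fbxw2 (101823582) averaged 40.8 ± 3.15 FPKM in STYK1 and 39.7 ± 2.97 FPKM in vector libraries (SD, n = 3 each), and Fbxw5 (101823588) averaged 31.5 ± 0.405 FPKM in STYK1 and 36.4 ± 5.97 FPKM in vector libraries. Both had overlapping groups. Fbxw7, the receptor for cyclin E and MYC, is given although the rule did not pick it, and averaged 7.44 ± 0.466 FPKM in STYK1 and 7.14 ± 0.478 FPKM in vector libraries. Its log2 difference was 0.05 ± 0.11 (SE).

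Among the 12 DCAF genes, Dcaf17 (101841040) had the smallest p of all 106 tested members and ranked 14 of 11464 genes. Its human counterpart is mutated in Woodhouse-Sakati syndrome. Dcaf17 measured 4.89, 4.86 and 3.95 FPKM in STYK1 libraries and 2.07, 2.58 and 2.79 FPKM in vector libraries. All STYK1 libraries were above all vector libraries, and the ratio of means was 1.84, or 1.70 without vector 1. The log2(FPKM + 1) means differed by 0.68 ± 0.15 (SE), the 95% interval running from 0.34 to 1.02, with an unadjusted limma-trend p of 0.00155. With libraries weighted by quality its adjusted p was 0.0516, and over the other alternatives the lowest adjusted p among members was 0.334 to 0.803.

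Dcaf7 (101824073), a WD40 protein that binds the kinase DYRK1A, measured 22.75, 24.10 and 25.10 FPKM in STYK1 libraries and 17.03, 21.02 and 21.96 FPKM in vector libraries. Its groups did not overlap, and the log2 difference of 0.26 ± 0.11 (SE) was 0.15 without vector 1. Dcaf5 (101823992) averaged 21.8 ± 1.56 FPKM in STYK1 and 19.0 ± 1.03 FPKM in vector libraries (SD, n = 3 each), with separate groups and a log2 difference of 0.19. Dcaf13 (101830780), whose yeast counterpart acts in ribosomal RNA processing, measured 45.78, 48.36 and 42.91 FPKM in STYK1 libraries and 53.33, 52.23 and 51.50 FPKM in vector libraries. Here all STYK1 libraries were lower, and vector 1 did not stand apart. The log2 difference was -0.19 ± 0.08 (SE; limma-trend unadjusted p = 0.0448), and -0.18 without vector 1 (0.0301). The most abundant receptors, Dcaf8 (101830884) and Dcaf6 (101831570), averaged 65.1 ± 1.64 and 61.6 ± 3.66 FPKM in STYK1 libraries, against 66.7 ± 2.05 and 60.4 ± 1.91 FPKM in vector libraries. Their 95% intervals of the log2 difference were -0.21 to 0.14 and -0.16 to 0.21. Counted over the family, STYK1 libraries were all above vector libraries in 4 of 12 genes and all below in 1 (33.3% and 8.33%, against 13.6% and 9.44% of all genes).

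The KLHL genes, BTB-Kelch receptors of CUL3, had 14 of 22 log2 differences above 0. At an unadjusted limma-trend p under 0.05, 3 were higher and 0 lower (13.6% and 0%, against 4.95% and 4.88% of all genes). STYK1 libraries were all above vector libraries in 7 of 22 (31.8%, against 13.6% of all genes) and all below in 0 (against 9.44%). Both the 3 and the 7 include Klhl28, which entered the test only through its STYK1 mean. Vector 1 was the lowest of the 6 libraries in 12 of the 22, and the class mean relative to the vector mean was 0.15, 0.18 and 0.10 in STYK1 libraries and -0.11, 0.06 and 0.05 in vector libraries, in log2 units. Without vector 1 the median was 0.09, with 17 of 22 above 0. The 1 higher gene then at an unadjusted p under 0.05 was Klhl28, which entered the test only through its STYK1 mean, and without it the count was 0.

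Klhl28 (101844462) measured 1.81, 1.42 and 1.34 FPKM in STYK1 libraries and 0.39, 1.10 and 0.49 FPKM in vector libraries. The groups were separate, but Klhl28 passed the filter only through its STYK1 mean. The fitted log2 difference was 0.62 ± 0.20 (SE; limma-trend unadjusted p = 0.0134), and 0.51 without vector 1 (0.0355). Klhl9 (101825062), which acts with CUL3 on Aurora B in mitosis, measured 15.95, 17.67 and 15.30 FPKM in STYK1 libraries and 11.65, 14.18 and 14.03 FPKM in vector libraries. Each STYK1 library was higher than each vector library. On the log2 scale the difference was 0.28 ± 0.11 (SE; limma-trend unadjusted p = 0.0393), and 0.19 without vector 1 (0.0592). Klhl11 (101830219) measured 10.14, 9.84 and 8.26 FPKM in STYK1 libraries and 6.30, 7.80 and 8.06 FPKM in vector libraries. The groups were separate, with STYK1 3 close to vector 3. In log2 terms the difference was 0.31 ± 0.13 (SE; limma-trend unadjusted p = 0.0474), and 0.22 without vector 1 (0.0901). Klhl7 (101841953), mutated in a form of human retinitis pigmentosa, averaged 36.2 ± 1.04 FPKM in STYK1 and 30.8 ± 5.24 FPKM in vector libraries (SD, n = 3 each), and its log2 difference of 0.24 was 0.09 without vector 1.

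The most abundant KLHL gene by far was Klhl2 (101838495), which targets WNK kinases, at 163 ± 3.49 FPKM in STYK1 and 153 ± 14.9 FPKM in vector libraries (SD, n = 3 each). Klhl22 (101842083), a receptor for PLK1 in mitosis, followed at 76.7 ± 1.81 FPKM in STYK1 and 79.3 ± 11.1 FPKM in vector libraries. Neither separated the groups, and their log2 differences were 0.10 and -0.04, or 0.01 and 0.07 without vector 1. Klhl24, singled out after its values were seen for the largest log2 difference of the family, measured 17.90, 18.14 and 14.88 FPKM in STYK1 libraries and 5.6, 15.72 and 12.64 FPKM in vector libraries. STYK1 3 lay below vector 2, vector 1 was far below the rest, and the log2 difference of 0.64 ± 0.30 (SE) was 0.25 without vector 1.

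Within the KCTD family, which carries a BTB domain without Kelch repeats, 8 of 14 log2 differences were above 0. STYK1 libraries were all above vector libraries in 1 of 14 (7.14%, against 13.6% of all genes) and all below in 0 (against 9.44%). At an unadjusted limma-trend p under 0.05, 1 was higher and 0 lower (7.14% and 0%, against 4.95% and 4.88% of all genes). Kctd18 (101836058) measured 10.27, 10.20 and 8.94 FPKM in STYK1 libraries and 8.31, 7.42 and 8.14 FPKM in vector libraries. All STYK1 libraries were higher, and vector 1 was the highest vector library. The log2 difference was 0.27 ± 0.11 (SE; limma-trend unadjusted p = 0.0424), and 0.30 without vector 1 (0.0221). Kctd20 (101825878) averaged 43.3 ± 0.630 FPKM in STYK1 and 42.9 ± 0.983 FPKM in vector libraries (SD, n = 3 each), and its 95% interval of the log2 difference was -0.16 to 0.19. Kctd10 (101823576), an adaptor of CUL3 for RHOB, averaged 34.5 ± 0.793 FPKM in STYK1 and 32.0 ± 2.14 FPKM in vector libraries, with an interval of -0.10 to 0.31.

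**Figure D4:**
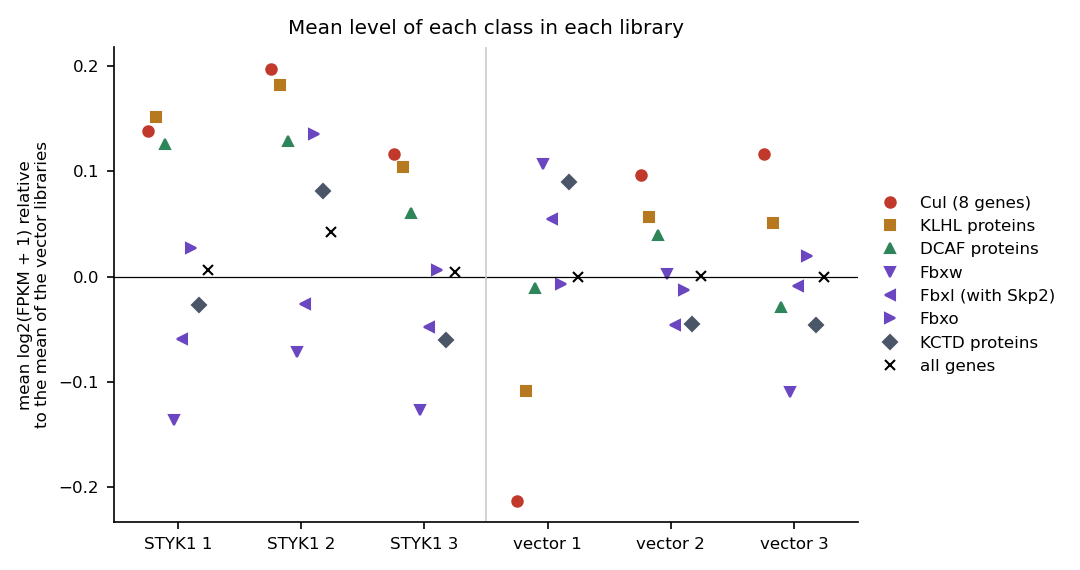
Mean log2(FPKM + 1) of the tested genes of each class or subfamily in each library, relative to the mean of the vector libraries, with STYK1 libraries on the left. Vector 1 is at -0.21 for the 8 cullins and at -0.11 for KLHL, but at 0.11 for Fbxw and 0.09 for KCTD genes.

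Of the 18 members with an unadjusted p under 0.05, 12 were also under it without vector 1 and in the same direction, 8 higher and 4 lower in STYK1 libraries. Klhl28 entered the test only through the group where it is high, and without it 7 were higher. The higher ones were Dcaf17, Klhl28, Fbxo11, Fbxo5, Cul5, Cul4a, Kctd18 and Cul3, and the lower ones Dcaf13, Fbxo16, Fbxl6 and Fbxw9. Both fits share 5 libraries, so the second is no separate support. In 5 of the 18 the log2 difference was smaller by over 1.5 times without vector 1. Over all 106 tested members this held for 59, and 16 had the other sign. The same counts were not taken over all genes, so whether members differ from other genes in this is not known. The spread within groups was alike for members and other genes, with a median coefficient of variation of 7.56% among STYK1 and 12.8% among vector libraries for members, against 7.95% and 13.6% for all genes. Between vector 2 and vector 3 it was 4.59% for members and 4.81% for all genes.

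**Figure D5:**
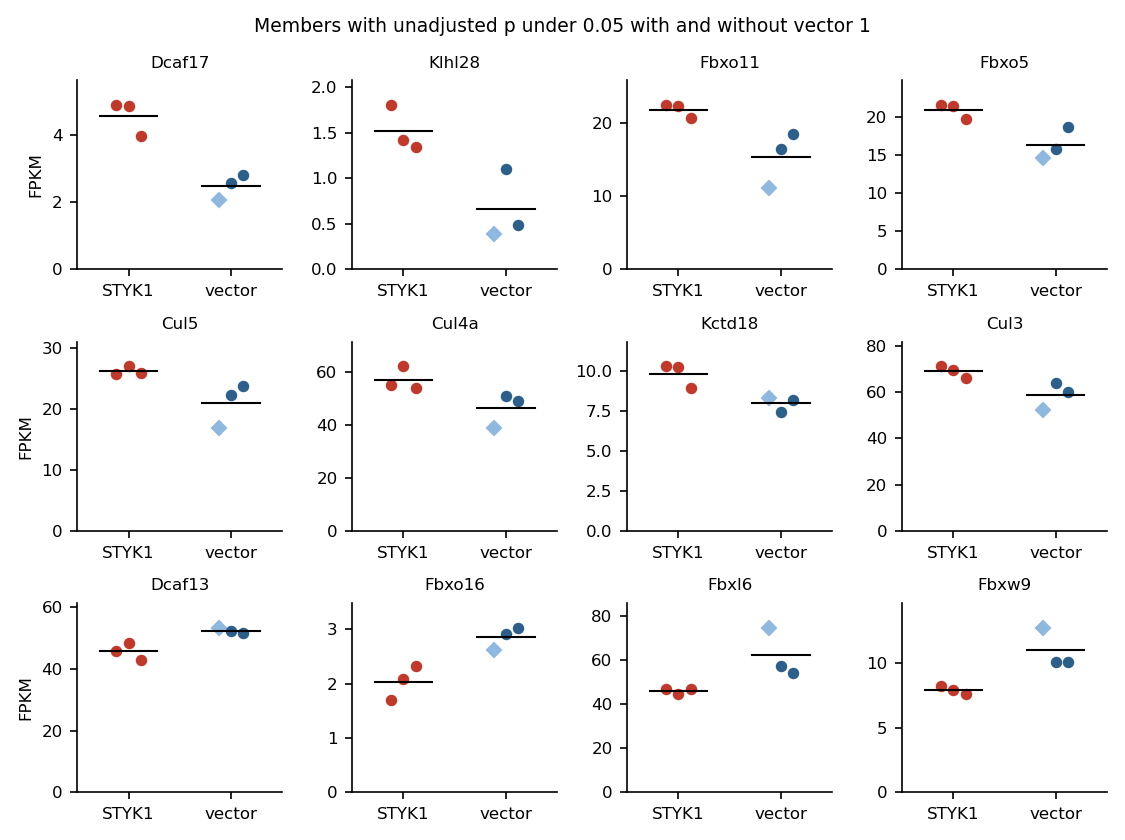
FPKM in each library of the 12 members with an unadjusted limma-trend p under 0.05 both with all 6 libraries and without vector 1, each on its own axis from 0. STYK1 libraries (red) are left of vector libraries (blue; vector 1 as a pale diamond), bars are group means, and in all 12 the groups are separate (Klhl28 passed the filter only through its STYK1 mean).

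Partners and regulators outside the families were taken from a list of 84 symbols, of which 78 had a row and 76 were tested. None passed the limma-trend test after adjustment (0 of 76). Before adjustment 4 had a p under 0.05 with higher and 1 with lower values in STYK1 libraries (5.26% and 1.32%, against 4.95% and 4.88% of all genes). The 4 include Asb13, which entered the test only through its STYK1 mean, so that it had to differ. For the 76 the median log2 difference was 0.04, and 0.01 without vector 1. Of 10 genes of the NEDD8 cycle, Senp8 (101824608), the protease that processes NEDD8, had the smallest p. Senp8 measured 14.22, 16.27 and 16.14 FPKM in STYK1 libraries and 21.72, 17.10 and 19.65 FPKM in vector libraries. All STYK1 libraries were lower, and the log2 difference was -0.30, or -0.23 without vector 1 (limma-trend unadjusted p = 0.0295 and 0.0477). Arih1 (101834447), a ligase that works with neddylated cullins, averaged 34.5 ± 0.685 FPKM in STYK1 and 30.3 ± 2.37 FPKM in vector libraries (SD, n = 3 each), and Ube2f (101836138), the NEDD8-conjugating enzyme of CUL5, averaged 23.8 ± 0.997 FPKM in STYK1 and 27.3 ± 1.69 FPKM in vector libraries. Their groups were separate in opposite directions, with log2 differences of 0.18 and -0.19. The elongin Elob, the DDB1 partner Dda1 and the NEDD8-conjugating enzyme Ube2m averaged 134 ± 16.0, 90.5 ± 6.20 and 149 ± 1.91 FPKM in STYK1 libraries, against 162 ± 27.0, 118 ± 28.6 and 174 ± 30.9 FPKM in vector libraries (SD, n = 3 each). Vector 1 was the highest of the 6 libraries for each of these.

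Of the 9 tested COP9 signalosome genes 7 had a log2 difference below 0, with a median of -0.08, and vector 1 was the highest of the 6 libraries in 7. The median was 0.0031 without vector 1, whose part in it was not tested. With equal FPKM sums it was 0.02, but relative to the median of all genes it was -0.09 under both scalings. The COP9 subunits with the smallest p, Cops9, Cops7a and Cops6, averaged 211 ± 11.0, 49.1 ± 1.40 and 73.9 ± 4.48 FPKM in STYK1 libraries, against 261 ± 61.2, 54.8 ± 5.14 and 83.9 ± 11.3 FPKM in vector libraries (SD, n = 3 each). Receptors with other symbols, such as the SOCS-box and speckle-type proteins, held all 4 higher genes, Asb13 among them. That was 12.5% of 32 tested, against 4.95% of all genes, and 0 were lower, against 4.88%. Their median was 0.07, and 0.0029 without vector 1. Zyg11b (110341250), a CUL2 receptor that recognises N-terminal glycine, measured 3.96, 5.49 and 3.62 FPKM in STYK1 libraries and 1.03, 3.01 and 2.72 FPKM in vector libraries. Every STYK1 library was higher, and the log2 difference was 0.77, or 0.46 without vector 1 (limma-trend unadjusted p = 0.0212 and 0.0270). Spopl (101839866), a CUL3 receptor, averaged 14.6 ± 1.28 FPKM in STYK1 and 11.0 ± 2.33 FPKM in vector libraries (SD, n = 3 each), with separate groups and a log2 difference of 0.40 that was 0.23 without vector 1. Asb13 (101838050), a SOCS-box gene, measured 0.23, 5.10 and 4.59 FPKM in STYK1 libraries and 0, 0 and 0.87 FPKM in vector libraries. STYK1 1 lay with the vector libraries, and Asb13 entered the test only through its STYK1 mean, at a vector mean of 0.29 FPKM. Among 14 known substrates the median was 0.05. Ccnd1, Wee1 and Cdt1 averaged 23.3 ± 2.27, 23.8 ± 2.65 and 8.27 ± 0.424 FPKM in STYK1 libraries, against 19.3 ± 2.81, 19.1 ± 3.48 and 6.67 ± 1.45 FPKM in vector libraries (SD, n = 3 each). STYK1 and vector libraries overlapped in each of these 3, and vector 1 was the lowest of the 6 in each.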

How the data were processed

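Gene expression was measured by RNA sequencing in 6 libraries, 3 per group. The authors deposited 1 table per library with a gene ID and an FPKM value for each gene, per the file headers. Bowtie 0.12.2 and the mouse builds mm8 and mm9 are named, with no role, in the submitters' processing notes. The counter, the handling of strand and of reads shared between paralogs, and the read totals are not stated in the labels or headers, so absolute depth is unknown and no counting interval is given. Gene IDs were paired with symbols through the RefSeq table of BCM_Maur_2.0, which matched 15049 of 16078. No coordinates of that table were used, and no sequences or protein lengths were analysed here.

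FPKM values were used as deposited. Genes that averaged 1 FPKM or more in either group were tested on log2(FPKM + 1) with limma-trend (limma 3.58.1, R 4.3.3, robust empirical Bayes, two-sided), with Benjamini-Hochberg adjustment over all 11464 tested genes. Fold changes on this scale understate the change of low genes. The procedure was tested on simulated data with the same scatter in every library, so its behaviour with a library like vector 1 was not tested. Named were every cullin and core component, in each other family the 2 genes of highest mean FPKM and up to 4 of smallest p whose groups did not overlap, and up to 3 genes of smallest p in each of the lists of partners. Members and lists were chosen with earlier results of these data known, among them that vector 1 stands apart. Alternatives were a pseudocount of 0.25, no filter, 3 scalings, a replicate block, library quality weights, no robust step, and leaving out each library.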

Additional observations from a re-analysis of the deposited data

How the results depend on the processing

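No member passed an adjusted p of 0.05 under any alternative run with limma. Over all genes the count at that threshold, 0 with all 6 libraries, was 24 with library quality weights and ranged from 0 to 2 on leaving out each library. With libraries scaled to equal FPKM sums, 19 members were higher and 3 were lower at an unadjusted p under 0.05, against 11.0% and 1.9% of all genes. Wholly below the vector libraries lay 2 members, against 3.95% of all genes. The same scaling gave median log2 differences of 0.22 for cullins and core components, 0.15 for F-box, 0.13 for DCAF, 0.23 for KLHL and 0.12 for KCTD genes, 0.16 for all members and 0.14 for the partner list, beside 0.12 for all genes. Leaving out 1 library at a time gave 2 to 14 higher and 2 to 6 lower members, and 8 to 17 wholly below. The shares of all genes moved as well, from 1.44% to 7.86% higher, 1.65% to 7.02% lower and 11.4% to 17.4% wholly below. The median log2 difference then ran from 0.011 to 0.059 for F-box proteins and from 0.016 to 0.079 for all members. Same-numbered libraries correlated at -0.27, -0.16 and 0.11 in their deviations from group means, so the numbers were not taken to pair them. A replicate block gave 8 higher and 3 lower members, against 3.93% and 3.32% of all genes. Of the 42 named members, up to 4 had the other sign under any 1 alternative. The cause of these shifts was not tested. Depth is known only in relative terms, so the precision of low genes such as Cul9, Fbxo16, Fbxo36 and Klhl28 cannot be stated beyond the spread of 3 libraries.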

Other observations

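Some members known chiefly from muscle are given here, picked after their values were seen and not as a full list. Of the muscle markers, Myod1 measured 275.06, 247.83 and 288.30 FPKM in STYK1 libraries and 309.53, 283.26 and 301.09 FPKM in vector libraries. The other muscle markers, Myog, Ckm and Acta1, averaged only 1.145, 1.91 and 0.072 FPKM over the 6 libraries. Fbxo32, which encodes the atrophy-related receptor atrogin-1, measured 18.03, 21.94 and 17.44 FPKM in STYK1 libraries and 14.84, 16.19 and 17.66 FPKM in vector libraries, and STYK1 3 lay just below vector 3. Klhl40, mutated in human nemaline myopathy, measured 9.92, 9.52 and 8.89 FPKM in STYK1 libraries and 7.75, 7.86 and 9.85 FPKM in vector libraries, with overlap through vector 3. Klhl41, a relative of Klhl40 in the same disease group, stayed under the filter at 0.28, 0.21 and 0.20 FPKM in STYK1 libraries and 0.07 FPKM in each vector library. Fbxo40 and Klhl31 were under the filter as well, and averaged 0.077 and 0.017 FPKM over the 6 libraries.

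Of the 24 members under the filter, STYK1 libraries were all above vector libraries in Klhl41 and Klhl13 and all below in none. With no filter, 26 of 130 members lay wholly above and 8 wholly below (20% and 6.15%, against 10.5% and 7.2% of 16078 genes). The share over all genes under the filter alone was not taken. Klhl13, the partner of Klhl9 on Aurora B, measured 0.42, 0.31 and 0.44 FPKM in STYK1 libraries and 0.10, 0.25 and 0.25 FPKM in vector libraries. Klhl41 and Klhl13 were outside the main test and entered only the fit with no filter. That fit gave 14 higher and 6 lower members at an unadjusted limma-trend p under 0.05. Those were 10.8% and 4.62%, against 3.81% and 3.68% of all genes. Both Klhl41 and Klhl13 lie at levels where the precision of a value is not known.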
